A study of Homo sapiens with 6 samples.

Results

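AP-1 and immediate early genes were followed as a set of 10, taken by symbol from the 46427 genes listed for every library. They were the JUN family genes JUN, JUNB and JUND, the FOS family genes FOS, FOSB, FOSL1 and FOSL2, the zinc finger gene EGR1, and the immediate early response genes IER2 and IER3. RNA came from K562, a human erythroleukemia cell line labelled wild type. In 3 libraries the cells had been exposed for 24 h to 10 µM of the compound coded HR-19011, and in 3 libraries for 24 h to the vehicle, 0.1% DMSO. How much DMSO the HR-19011 cells received is not in the labels, so compound and solvent content cannot be told apart. Separate cultures are not stated either, and p-values then measure only the spread among these samples, which may be technical.

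AP-1 is a transcription factor made of paired basic leucine zipper proteins. JUN family proteins pair with each other or with FOS family proteins, whereas FOS family proteins need a partner such as JUN to bind DNA. Many of these genes are induced within minutes by growth factors or stress through MAP kinases, SRF and CREB, without new protein synthesis, and many of their transcripts are short-lived. JUND is known as the steadily expressed JUN, FOSL1 and FOSL2 as slower and longer-lasting members than FOS, and AP-1 has been tied to the megakaryocytic differentiation that K562 cells undergo with phorbol ester.

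All 10 genes had a mean of at least 1 FPKM (fragments scaled to transcript length and to library total) over the 6 libraries, FOSL2 through its HR-19011 values alone. With limma, 7 of the 10 rose and 3 fell, at a threshold of 0.05 on p-values adjusted by the Benjamini-Hochberg method; the call of EGR1 was lost after TMM scaling. Over all 11856 tested genes, 84.4% were called, with 46.4% higher and 38.0% lower, so the fact that members were called does not set them apart. The groups did not overlap for any of the 10 members, and for 85.2% of all tested genes. The pseudocount of 1 FPKM behind each log2 fold change makes it understate changes of low genes, whereas folds are plain ratios of group mean FPKM. The median log2 fold change was 0.41 for the members and 0.07 for all tested genes. That overall median moved by -0.22 under TMM scaling, -0.12 under quantile normalization and 0.11 under equal totals. The calls over all genes were 5506 higher and 4503 lower as deposited, and 4060 higher and 5990 lower after TMM scaling.

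**Figure D1:**
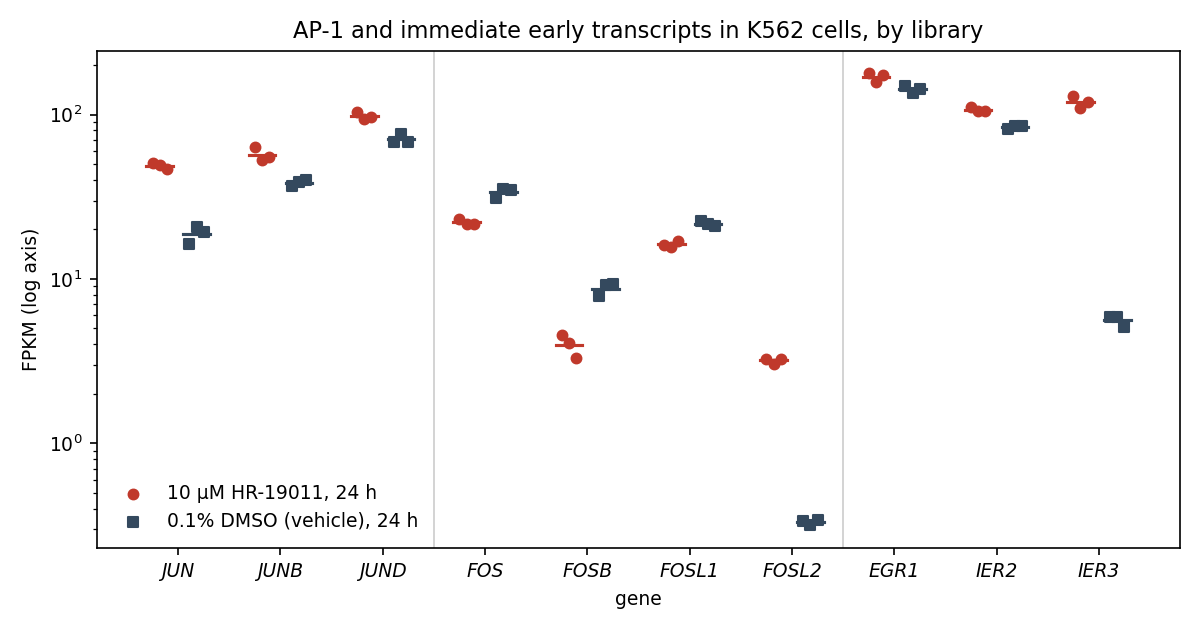
FPKM of the 10 genes on a log axis, with 1 point per library and a bar at the group mean, for 3 HR-19011 libraries (circles) and 3 vehicle libraries (squares). IER3 lies between 110 and 129 FPKM with HR-19011 and between 5.11 and 5.91 FPKM with vehicle, and FOS, FOSB and FOSL1 are the genes with HR-19011 points below the vehicle points.

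All 3 JUN family genes rose, JUN the most. JUN, the prototype AP-1 subunit (chr1:58780791-58784047, minus strand, RefSeq on GRCh38.p14), was listed at 50.6, 49.4 and 46.5 FPKM in the HR-19011 libraries and at 16.3, 20.6 and 19.4 FPKM in the vehicle libraries. Every HR-19011 library thus exceeded every vehicle library by more than the range within either group. JUN averaged 48.9 ± 2.08 FPKM with HR-19011 and 18.8 ± 2.20 FPKM with vehicle (SD, n = 3 each), log2 fold change 1.34 (SE 0.0748; limma adjusted p = 2.26e-07). In bulk RNA, more cells that express a gene and more RNA per cell cannot be told apart.

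JUNB, which often counteracts JUN in growth control, had 63.0, 52.7 and 55.0 FPKM in HR-19011 libraries, against 36.7, 38.8 and 40.1 FPKM in vehicle libraries. Its log2 fold change was 0.55 (SE 0.0633; limma adjusted p = 3.44e-05). JUND was listed at 103, 93.7 and 97.2 FPKM with HR-19011 and at 67.8, 76.5 and 67.7 FPKM with vehicle, log2 fold change 0.47 (SE 0.0539; limma adjusted p = 3.37e-05). JUND stayed the most abundant of the 7 AP-1 genes in both groups. After TMM scaling the log2 fold changes of JUNB and JUND were 0.31 and 0.22, still called. On GENCODE 29, JUNB lies inside the span of HOOK2 on the opposite strand. HOOK2 averaged 4.32 FPKM with HR-19011 and 3.33 FPKM with vehicle, and the labels and headers do not say whether reads were counted by strand.

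The sequences before the starts of JUN, JUND, EGR1 and FOS are shown as examples with and without a match to the motifs searched. JUNB and IER2, which rose, held no match, and neither did FOS and FOSB, which fell. Sites farther from the start, or with letters that differ from these patterns, were not searched, so no match does not mean no site. The sequences run 5′ to 3′ along the gene, 250 bases up to the base before the start, from RefSeq on GRCh38.p14. Capitals mark matches to the motifs searched.
JUN, chr1:58784048-58784297, minus strand: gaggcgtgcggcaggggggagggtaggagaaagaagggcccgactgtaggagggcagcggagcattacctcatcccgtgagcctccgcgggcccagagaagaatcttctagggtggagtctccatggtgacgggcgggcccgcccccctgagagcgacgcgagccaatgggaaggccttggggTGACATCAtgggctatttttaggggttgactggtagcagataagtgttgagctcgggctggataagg
JUND, chr19:18281623-18281872, minus strand: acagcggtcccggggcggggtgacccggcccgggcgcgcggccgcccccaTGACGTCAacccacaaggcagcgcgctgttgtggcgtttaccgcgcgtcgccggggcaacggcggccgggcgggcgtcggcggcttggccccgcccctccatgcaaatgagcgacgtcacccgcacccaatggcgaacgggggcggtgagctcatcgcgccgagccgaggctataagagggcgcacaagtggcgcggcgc
EGR1, chr5:138465229-138465478, plus strand: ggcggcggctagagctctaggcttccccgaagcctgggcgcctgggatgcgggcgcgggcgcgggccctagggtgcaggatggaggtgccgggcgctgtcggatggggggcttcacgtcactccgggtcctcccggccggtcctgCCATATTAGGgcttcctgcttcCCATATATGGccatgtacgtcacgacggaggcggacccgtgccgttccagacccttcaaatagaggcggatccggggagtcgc
FOS, chr14:75278578-75278827, plus strand: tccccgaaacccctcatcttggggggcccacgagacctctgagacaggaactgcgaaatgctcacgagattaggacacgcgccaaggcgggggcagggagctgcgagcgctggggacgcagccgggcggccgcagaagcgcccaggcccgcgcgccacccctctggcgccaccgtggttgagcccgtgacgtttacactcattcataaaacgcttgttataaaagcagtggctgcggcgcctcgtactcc

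The RefSeq table held 8 of the 10 members, without FOSL1 and IER3. Both strands were searched from 250 bases before to 50 bases after each start for TGANTCA, the classical AP-1 site, TGACNTCA, a site of the CREB and ATF kind, TGATGNAA, the kind bound by ATF4 with C/EBP partners, and the CArG box bound by SRF. None of the matches overlapped another. With the base before the start as -1, JUN held TGACATCA at -67 to -60 and JUND held TGACGTCA at -200 to -193. EGR1 held 2 CArG boxes, at -105 to -96 and -83 to -74. FOSL2 held TGACTCA from base 5 to base 11 of its transcript. Among 27305 windows of the same length, TGANTCA was found in 7.76%, TGACNTCA in 7.97%, TGATGNAA in 3.67% and the CArG box in 1.29%. These letters were not found in this window for FOS, FOSB, JUNB and IER2. TGATGNAA was found in none of the 8.

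Within the FOS family, FOS, FOSB and FOSL1 fell, while FOSL2, the lowest of the 10, rose. FOS, the main partner of JUN (chr14:75278828-75282230, plus strand), was listed at 23.1, 21.6 and 21.5 FPKM in HR-19011 libraries, against 31.2, 35.2 and 34.7 FPKM in vehicle libraries. FOS averaged 22.1 ± 0.929 FPKM with HR-19011 and 33.7 ± 2.16 FPKM with vehicle (SD, n = 3 each), log2 fold change -0.59 (SE 0.0511; limma adjusted p = 4.68e-06). Every HR-19011 value lay below every vehicle value.

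FOSB, a close relative of FOS, had 4.53, 4.07 and 3.33 FPKM with HR-19011 and 7.84, 9.15 and 9.26 FPKM with vehicle. It was 2.20-fold lower, with log2 fold change -0.97 (SE 0.0940; limma adjusted p = 9.80e-06) that ranged from -1.19 after quantile normalization to -0.62 with a pseudocount of 5. On GENCODE 29, FOSB lies within the span of ERCC1 on the opposite strand, and ERCC1 averaged 37.3 FPKM with HR-19011 and 17.5 FPKM with vehicle. FOSL1, which encodes FRA-1, was listed at 16.1, 15.7 and 16.9 FPKM in HR-19011 libraries and at 22.5, 21.7 and 20.9 FPKM in vehicle libraries. Its log2 fold change was -0.40 (SE 0.0418; limma adjusted p = 1.76e-05), and -0.63 after TMM scaling.

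FOSL2, which encodes FRA-2 (chr2:28392858-28417317, plus strand), was the member of the FOS family that went up. It was listed at 3.26, 3.05 and 3.27 FPKM with HR-19011 and at 0.339, 0.318 and 0.341 FPKM with vehicle. The ratio of means was 9.61, and the log2 fold change was 1.65 (SE 0.0554; limma adjusted p = 8.34e-09). With its vehicle level this low, the log2 fold change was 2.93 with a pseudocount of 0.1 and 0.62 with a pseudocount of 5. Even so, FOSL2 remained the lowest of the 10 genes in both groups. On FPKM, a scale per length, it averaged 3.20 ± 0.122 with HR-19011, close to FOSB at 3.98 ± 0.608 (SD, n = 3 each).

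**Figure D2:**
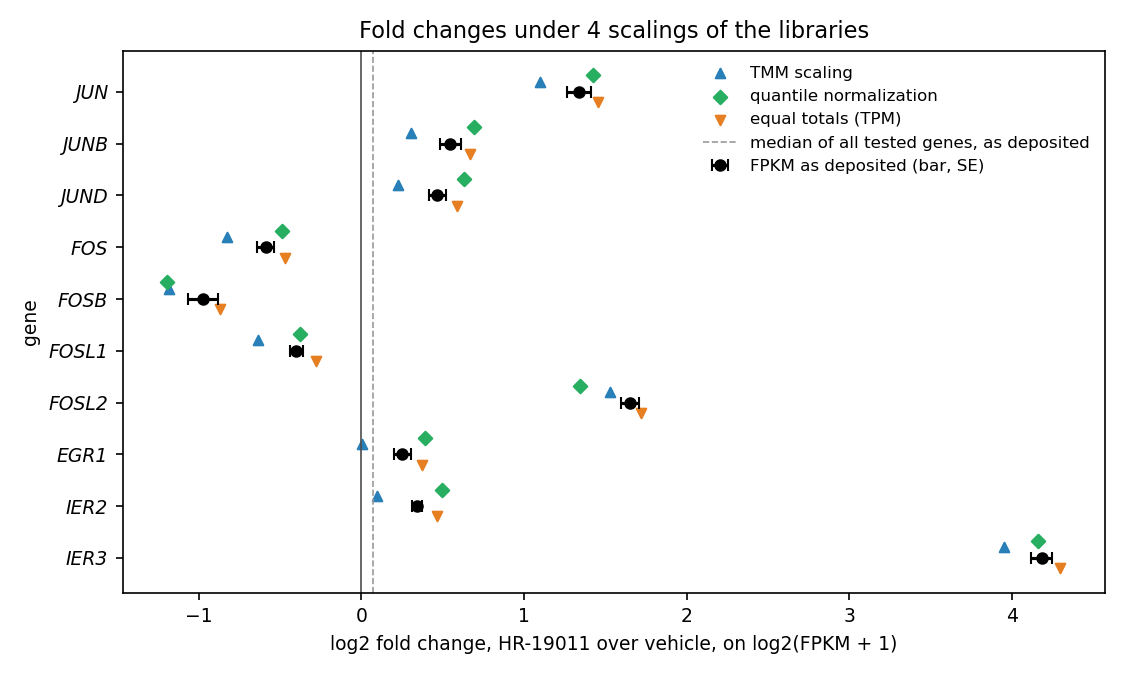
Log2 fold change of each gene, HR-19011 over vehicle, as deposited (black, bar for SE) and after TMM scaling, quantile normalization and equal totals. JUN, JUNB, JUND, FOSL2 and IER3 stay above 0 and FOS, FOSB and FOSL1 below 0 in all 4, while EGR1 reaches 0.01 after TMM scaling.

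The summed transcripts of the JUN and FOS families moved in opposite directions. JUN, JUNB and JUND together came to 217, 196 and 199 FPKM in the HR-19011 libraries, against 121, 136 and 127 FPKM in the vehicle libraries. FOS, FOSB, FOSL1 and FOSL2 together came to 47.0, 44.4 and 45.0 FPKM with HR-19011 and to 61.9, 66.3 and 65.1 FPKM with vehicle. FOS family FPKM per JUN family FPKM was 0.223 ± 0.00568 with HR-19011 and 0.504 ± 0.0138 with vehicle (SD, n = 3 each). Because this ratio is taken within a library, no scaling of whole libraries changes it. The ratio lay between 0.217 and 0.227 in the HR-19011 libraries and between 0.488 and 0.512 in the vehicle libraries, without overlap. These sums describe RNA and not the dimers present in the cells, and they are given without a test.

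Within the 7 AP-1 genes, JUN took 19.6% ± 0.840 of the summed FPKM with HR-19011 and 9.75% ± 0.695 with vehicle (SD, n = 3 each). JUND took 39.3% ± 0.468 with HR-19011 and 36.7% ± 1.36 with vehicle, and JUNB 22.8% ± 0.987 with HR-19011 and 20.0% ± 0.843 with vehicle. FOS took 8.85% ± 0.112 with HR-19011, against 17.5% ± 0.479 with vehicle. FOSL1 took 6.52% ± 0.426 with HR-19011 and 11.3% ± 0.888 with vehicle. FOSB made up 1.59% ± 0.197 with HR-19011 and 4.54% ± 0.262 with vehicle, and FOSL2 1.28% ± 0.0548 with HR-19011 and 0.173% ± 0.0145 with vehicle. Among the JUN family genes, the share of JUN differed most between the groups. Inside the JUN family, JUN held 24.0% ± 1.09 with HR-19011 and 14.7% ± 0.978 with vehicle, while JUND held 48.1% ± 0.683 with HR-19011 and 55.2% ± 1.73 with vehicle.

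**Figure D3:**
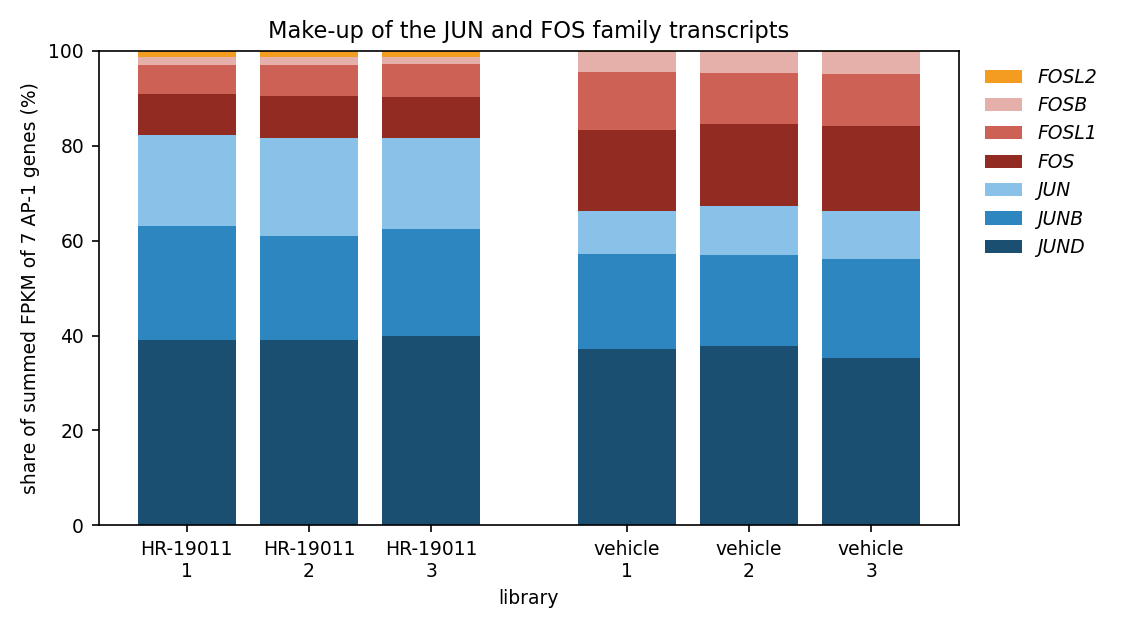
Share of the summed FPKM of the 7 JUN and FOS family genes taken by each gene, as stacked bars for 3 HR-19011 libraries on the left and 3 vehicle libraries on the right. JUN (light blue) averages 19.6% with HR-19011 and 9.75% with vehicle, and FOS (dark red) 8.85% with HR-19011 and 17.5% with vehicle.

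The 3 remaining genes rose by very different amounts. EGR1, a zinc finger factor induced by serum and stress, was listed at 178, 158 and 173 FPKM in HR-19011 libraries, against 150, 134 and 143 FPKM in vehicle libraries. The log2 fold change was 0.25 (SE 0.0521; limma adjusted p = 0.00162). After TMM scaling it was 0.01 (adjusted p = 0.926), and over the 17 alternatives the adjusted p lay between 0.000101 and 0.926, so whether EGR1 rose depends on the scaling. IER2, a short nuclear protein of the immediate early response, had 111, 105 and 105 FPKM with HR-19011 and 81.9, 85.5 and 85.0 FPKM with vehicle. Its log2 fold change was 0.34 (SE 0.0309; limma adjusted p = 6.05e-06), and 0.10 after TMM scaling (adjusted p = 0.0160).

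IER3, also called IEX-1 (chr6:30743199-30744547, minus strand), is a stress-inducible regulator of cell survival. It was listed at 129, 110 and 119 FPKM in HR-19011 libraries and at 5.91, 5.85 and 5.11 FPKM in vehicle libraries. The ratio of means was 21.2, and the log2 fold change was 4.18 (SE 0.0658; limma adjusted p = 1.54e-10), rank 15 from the top among 11856 tested genes. Among the 10 members, IER3, FOSL2 and JUN passed a log2 fold change of 1, as did 12.0% of all tested genes in that direction. On the falling side no member reached -1 as deposited, against 6.45% of all tested genes, although FOSB was at -1.18 after TMM scaling and at -1.19 after quantile normalization. IER3-AS1, annotated on the opposite strand over 394 bases of IER3, averaged 0.713 FPKM with HR-19011 and 0.730 FPKM with vehicle.

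The order of levels changed around IER3 and JUN. With HR-19011 the means ran EGR1 at 170 FPKM, IER3 at 119, IER2 at 107, JUND at 98.1, JUNB at 56.9, JUN at 48.9, FOS at 22.1, FOSL1 at 16.2, FOSB at 3.98 and FOSL2 at 3.20 FPKM. With vehicle they ran EGR1 at 142 FPKM, IER2 at 84.1, JUND at 70.7, JUNB at 38.5, FOS at 33.7, FOSL1 at 21.7, JUN at 18.8, FOSB at 8.75, IER3 at 5.62 and FOSL2 at 0.332 FPKM. JUN therefore stood above FOS and FOSL1 with HR-19011 and below both with vehicle. Neighbours in these orders did not overlap between libraries, except IER3 and IER2 with HR-19011.

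The members share a low exon count. All 10 have at most 4 exons in GENCODE 29, as do 26.8% of 18442 protein-coding genes matched to RefSeq transcripts. The median gene span was 3683 bases for the members and 28010.5 for all genes matched, but FOSL2 spanned 24865 bases. JUN, JUNB and JUND have 1 exon, EGR1, IER2 and IER3 have 2, and the FOS family genes have 4. The AU-rich pentamer ATTTA, found in many unstable transcripts, occurred 6 times in the 737 bases of the IER3 3′ untranslated region and 5 times in the 806 bases of that of FOS. That is 8.14 and 6.20 per 1000 bases, a density reached by 2.74% and 5.94% of genes. These 2 were the densest members, and the median was 1.68 per 1000 bases for the 10 members and 1.39 for all genes matched. FOSL2 had 9 in 4864 bases, JUN had 3 in 1287 bases, and IER2 had none in 1050 bases. The densest genes thus include the member that rose most and a member that fell. The stretches below, from GENCODE 29 on GRCh38, hold the most ATTTA, in capitals, of any 30 bases in each 3′ untranslated region. Where several stretches tied, the first place along the region was taken, and spacing was not compared.
IER3, chr6:30743647-30743676, minus strand: aattaatATTTAtatgtATTTAtgtacgtc
FOS, chr14:75282059-75282088, plus strand: gtgtttttaATTTATTTAttaagatggatt
FOSL2, chr2:28416349-28416378, plus strand: attgacATTTAttttattATTTAttttaaa

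Relatives and partners of AP-1 mostly rose. The counts of this list and of those below stand beside 46.4% higher and 38.0% lower over all tested genes. Of 12 bZIP genes, 10 were tested, 3 of them passing through their HR-19011 values alone, and 9 rose while none fell, with a median log2 fold change of 0.80 against 0.07 for all tested genes. The bZIP median was 0.40 without a filter and 0.16 after TMM scaling, where 6 of 9 tested genes were called higher and none lower. The median of all tested genes was -0.15 after TMM scaling. Without a filter, 8828 genes were called higher and 4879 lower over all genes, and their median is not given here. ATF3, a stress-induced partner of JUN, was listed at 57.1, 54.1 and 55.1 FPKM with HR-19011 and at 3.12, 3.40 and 3.01 FPKM with vehicle. JDP2, a repressor that dimerizes with JUN, averaged 2.44 ± 0.205 FPKM with HR-19011 and 0.172 ± 0.0110 with vehicle (SD, n = 3 each), and the small MAF gene MAFF 7.63 ± 0.176 FPKM with HR-19011 and 1.93 ± 0.283 with vehicle. MAFK was not called as deposited (log2 fold change 0.12; limma adjusted p = 0.0704), while with equal totals all 10 tested bZIP genes were called higher.

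Other immediate early genes did not all follow. Of 32 listed, 22 were tested, 6 of them through HR-19011 values alone, and 17 rose and 4 fell, with a median of 1.14. Of the 16 that reached 1 FPKM with vehicle, 11 rose. Over all tested genes, 46.4% rose and 38.0% fell. Without a filter 21 of 30 rose and 4 fell, with a median of 0.50. KLF6, a zinc finger factor, averaged 47.0 ± 0.767 FPKM with HR-19011 and 7.56 ± 0.128 with vehicle (SD, n = 3 each). PHLDA1 averaged 6.04 ± 0.271 FPKM with HR-19011 and 0.239 ± 0.0719 with vehicle. CSRNP1, also known as AXUD1, averaged 39.8 ± 0.796 FPKM with HR-19011 and 11.4 ± 0.789 with vehicle. The matricellular gene CCN1 was 2.11-fold lower, TIPARP 1.40-fold lower and MYC 1.28-fold lower with HR-19011. The MAP kinase phosphatase gene DUSP1 was not called (log2 fold change -0.05; limma adjusted p = 0.390). The EGR1 relatives EGR2 and EGR3 stayed under 1 FPKM in every library, and EGR4 was listed at 0 in all 6.

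Upstream genes were split, beside 46.4% higher and 38.0% lower over all tested genes. Of 15 genes for SRF, its MRTF and ternary complex partners, CREB and MEF2 factors, 12 rose and 3 fell as deposited, with a median of 0.45. After TMM scaling 8 were called higher and 3 lower (median 0.23), and after quantile normalization 9 higher and 3 lower (median 0.27). The median of all tested genes was -0.15 after TMM scaling and -0.05 after quantile normalization. After quantile normalization, 4603 of 11856 tested genes were called higher and 5330 lower. ELK1, an SRF partner that MAP kinases activate, was 1.96-fold, MEF2A 2.67-fold and CREM 2.48-fold of vehicle. SRF itself was 1.27-fold lower, ATF1 1.22-fold lower and MEF2C 1.65-fold lower. Of 28 MAP kinase cascade genes, 23 were tested, and 7 rose and 10 fell as deposited, with a median of -0.08. The MAP kinase counts depended on scaling too, with 5 higher and 16 lower after TMM scaling and 11 higher and 6 lower with equal totals. So did the counts over all genes, with 4060 of 11827 tested genes higher and 5990 lower after TMM scaling. With equal totals, 6291 of 11870 tested genes were higher and 3811 lower. MAP2K5, the kinase MEK5, was 2.60-fold of vehicle, MAPK3, the kinase ERK1, 1.60-fold, and MAP2K2, the kinase MEK2, 1.35-fold. MAP2K3, a p38 activator, was 2.96-fold lower, MAP3K4 2.01-fold lower and RPS6KA1 1.41-fold lower.

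Of 13 genes for AU-rich element binding and mRNA decay, 4 rose and 9 fell as deposited, with a median of -0.29. Over all tested genes, 46.4% rose and 38.0% fell. The decay list had 3 higher and 9 lower after TMM scaling (median -0.52). It had 3 higher and 8 lower after quantile normalization (median -0.16), and 4 higher and 7 lower with equal totals (median -0.17). Beside these, the median of all tested genes was -0.15 after TMM scaling, -0.05 after quantile normalization and 0.18 with equal totals. KHSRP, which promotes decay of AU-rich transcripts, averaged 91.1 ± 1.56 FPKM with HR-19011 and 169 ± 1.63 with vehicle (SD, n = 3 each). HNRNPD was 1.75-fold lower and ELAVL1, a stabilizing protein, 1.74-fold lower. DCP2, a decapping enzyme, was 1.72-fold, ZFP36, which destabilizes AU-rich transcripts, 1.41-fold and ZFP36L1 1.39-fold of vehicle. Of 8 regulators of JUN, JUND and EGR1 proteins, 5 rose and 3 fell as deposited, and 3 rose and 3 fell after TMM scaling. NAB2, a corepressor and target of EGR1, averaged 23.1 ± 0.630 FPKM with HR-19011 and 9.77 ± 0.715 with vehicle. FBXW7 and ITCH, ubiquitin ligases of JUN proteins, were 1.42-fold and 1.32-fold of vehicle. MEN1, whose product menin binds JUND, was 1.48-fold lower, and COPS5 1.22-fold lower.

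Textbook targets of AP-1 that reached a mean of 1 FPKM were called higher. Of 21 listed, 9 were tested and all 9 rose, 4 of them having passed through HR-19011 values alone, with a median of 2.16. All 5 that reached 1 FPKM with vehicle rose, while over all tested genes 46.4% rose and 38.0% fell. The list was chosen with earlier results of these data known, so its counts and median are description only. Without a filter 15 of 20 rose and none fell, with a median of 0.35. The chemokine gene CXCL8 was listed at 155, 132 and 141 FPKM with HR-19011 and at 0.798, 0.808 and 0.621 FPKM with vehicle. TIMP1, an inhibitor of metalloproteinases, averaged 535 ± 14.1 FPKM with HR-19011 and 119 ± 1.91 with vehicle (SD, n = 3 each). Of 11 textbook EGR1 targets, 6 were tested, 1 of them through HR-19011 values alone, and 5 rose and none fell as deposited. After TMM scaling 5 of the 6 were higher and 1 was lower, and without a filter 6 of 11 were higher and 1 lower. PDGFA was 11.3-fold and ICAM1 2.91-fold of vehicle, and TGFB1 was not called (log2 fold change -0.00; limma adjusted p = 0.956).

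**Figure D4:**
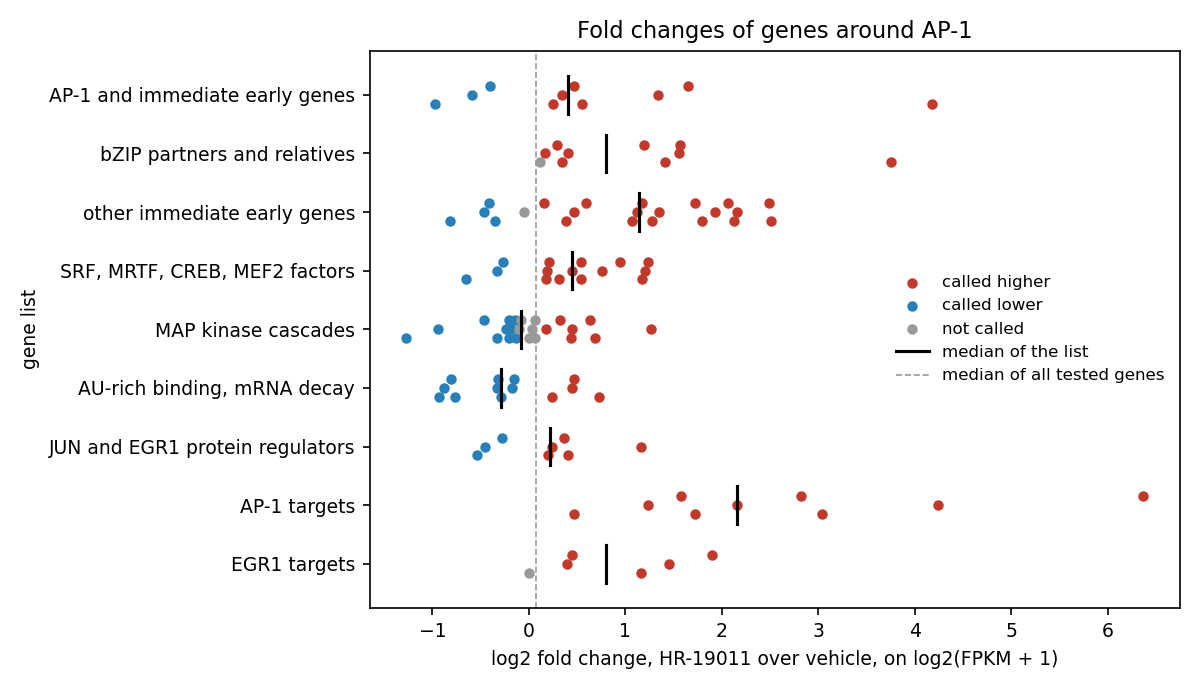
Log2 fold change of each tested gene, HR-19011 over vehicle, by list, with red for genes called higher, blue for genes called lower, grey for genes not called, a black bar at the list's median and a dashed line at the median of all tested genes, 0.07. The median is 2.16 for AP-1 targets and 1.14 for other immediate early genes, which are 0.35 and 0.50 without the filter on low values. It is -0.29 for mRNA decay genes, which is -0.52 after TMM scaling and -0.16 after quantile normalization. The median of all tested genes moves as well, to -0.15 after TMM scaling and -0.05 after quantile normalization.

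The K562 label was checked on fixed markers. All 9 erythroid and K562 markers were listed in every library, and 8 of the 9 were called lower, as were 38.0% of all tested genes. The 9 summed to 3555 to 3741 FPKM with HR-19011 and to 8695 to 8863 FPKM with vehicle. Megakaryocytic markers summed to 7.72 to 8.40 FPKM with HR-19011 and to 2.33 to 2.73 FPKM with vehicle. Of these 7, 2 were tested and called higher, ITGA2B and ITGB3, with ITGB3 passing the filter through its HR-19011 values alone, and the defining genes GP1BA, GP9, PF4 and SELP were listed at 0 in all 6 libraries. Lymphoid markers summed to 12.7 to 13.2 FPKM with HR-19011 and 6.72 to 9.58 with vehicle, mature myeloid markers to 12.4 to 13.4 FPKM with HR-19011 and 11.5 to 12.2 with vehicle. Fibroblast and epithelial markers summed to 19.2 to 21.8 FPKM with HR-19011 and 32.5 to 33.8 with vehicle. MS4A1 among the lymphoid, S100A8 and S100A9 among the myeloid, and KRT5 and KRT14 among the epithelial markers were listed at 0 in all 6 libraries. A single gene carried most of each of these last sums. CD3D averaged 11.9 FPKM with HR-19011 and 7.40 with vehicle, LYZ 12.8 with HR-19011 and 11.6 with vehicle, and EPCAM 20.3 with HR-19011 and 32.5 with vehicle. The fibroblast gene COL1A1 averaged 0.320 FPKM with HR-19011 and 0.0711 with vehicle. The part of these marker values in the AP-1 values was not tested.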

How the data were processed

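The authors deposited FPKM per gene for each of 6 libraries, per the file headers. Per the labels' protocols, a stranded mRNA kit was used. GRCh38 and the tools StringTie 2.1.3b, HISAT2 2.1.0, HISAT, Bowtie2, Trimmomatic 0.38, SAMtools 1.9 and DESeq2 1.24.0 appear, without roles, in the submitters' processing notes. The treatment of reads shared between genes is not stated. No counts are given and low values did not resolve into whole reads (at best 31.6% to 41.3% of low values lay within 0.1 of a whole multiple), so depth is unknown. Summed FPKM was 420661 to 427819 with HR-19011 and 456639 to 467595 with vehicle, and no libraries were duplicates (at most 0.0244% identical values within a group).

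The 11856 genes averaging 1 FPKM or more entered a limma fit (version 3.58.1, R 4.3.3) of log2(FPKM + 1): group as the only term, mean-variance trend, two-sided moderated test, Benjamini-Hochberg adjustment over all tested genes, threshold 0.05. On simulated data for this comparison (11856 genes) 74% of genes changed 1.25-fold and 98% of those changed 1.5-fold were recovered. There were 11 false calls among 11656 unchanged genes. The simulated folds were of FPKM + 1, with no shift of whole libraries and few changed genes. With 84.4% of genes called in the data, these rates need not carry over. Named genes are the 10 members, up to 3 called genes per list and direction with the smallest p, and the 3 nearest genes to the highest and lowest member; a few that the rule names are not reported here. MAFK, DUSP1, TGFB1, EGR2, EGR3, EGR4, the overlapping genes and the marker genes were named after their values were seen. Members and lists were chosen with earlier results of these data known. Alternatives tried: the pseudocount at 0.1 or 5, the filter removed or raised to 5 FPKM, TMM scaling (unweighted, 30% of log ratios and 5% of mean logs trimmed at each end), quantile normalization, equal totals (TPM) with or without globin and mitochondrial genes, no trend, the replicate number as a block, a threshold of 0.01, and each library left out. Gene structure and 3′ untranslated regions came from 1 GENCODE 29 transcript per gene matched to RefSeq.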

Additional observations from a re-analysis of the deposited data

How the results depend on the processing

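Of 169 values for the 10 members over 17 alternatives, 168 kept their direction and side of the threshold, the exception being EGR1 after TMM scaling. For the 43 other genes named by the rule, 723 of 723 values did so. Those 43 were picked for small p-values or for nearness to a member, and MAFK, DUSP1 and TGFB1 are not among them. Calls outside the 43 did move. With equal totals all 10 tested bZIP genes were called higher, against 9 as deposited, and all 6 tested EGR1 targets, against 5. FOSL2 was not tested at a mean of 5 FPKM. With each library left out in turn, 7 members stayed higher and 3 lower. Without a filter 8828 genes were called higher. With a mean of at least 5 FPKM, which tests fewer genes, 3347 genes were called higher, and 37 genes of the context lists, against 66 in the reported fit. The log2 ratio of summed FPKM, 0.67 for the JUN family and -0.50 for the FOS family, was 0.42 and -0.75 after TMM scaling and 0.80 and -0.38 with equal totals; the cause was not tested. With the replicate number as a block, 5435 genes were called higher and 4445 lower, the members stayed at 7 and 3, and no member's call changed. Same-numbered libraries did not deviate together (correlations of -0.0343, -0.00448 and -0.108), so the numbers were not taken as pairs. Depth is unknown, so no counting error can be given for low genes such as FOSL2 with vehicle.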

Other observations

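Among the genes whose values lay nearest to those of IER3, by Euclidean distance over 6 libraries of log2(FPKM + 1) minus the vehicle mean, were IFI16 (distance 0.173) and TMEM158 (0.226). IFI16, a DNA sensor, averaged 27.1 ± 0.596 FPKM with HR-19011 and 0.581 ± 0.131 with vehicle (SD, n = 3 each). TMEM158, a membrane protein gene, averaged 91.6 ± 4.31 FPKM with HR-19011 and 4.51 ± 0.259 with vehicle. Nearest to FOSB, the member with the lowest log2 fold change, were TSEN54, a subunit of the tRNA splicing endonuclease (0.163), CLCN2, a chloride channel gene (0.181), and WNT5B, a secreted WNT ligand gene (0.187). TSEN54 averaged 10.4 ± 1.22 FPKM with HR-19011 and 21.9 ± 0.372 with vehicle, CLCN2 1.99 ± 0.200 FPKM with HR-19011 and 4.69 ± 0.441 with vehicle, and WNT5B 2.05 ± 0.561 FPKM with HR-19011 and 5.08 ± 0.231 with vehicle. With only 2 groups, many genes share such a profile, and nearness says no more than a similar fold change and spread. The pseudogene FOSL1P1 was listed at 0.0120, 0 and 0.0172 FPKM with HR-19011 and at 0 in all 3 vehicle libraries.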
